A study of Mus musculus with 67 samples.

Results

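Chromatin accessibility was compared between p0-1 and p2 neural progenitors (NPs) that had been sorted at day 6 of differentiation from cultures given 10 nM SAG, a small molecule agonist of Shh signaling. The comparison used 6 of the 67 samples measured, namely the 3 samples labeled p0-1 and the 3 labeled p2 for that day and concentration, and each p0-1 sample was set against the p2 sample with the same replicate number. All cells came from 1 mouse embryonic stem (ES) cell line, HM1, which was taken with bFGF, LGK and a pulse of CHIR99021, SB-431542 and DMH1 to neuromesodermal progenitors (NMPs) at day 3 and then given 100 nM retinoic acid (RA) with SAG. Both groups therefore shared the cell line, every agent and the SAG concentration. Cells were fixed and transposed in bulk, stained for transcription factors inside the cell and then sorted (CaTS-ATAC), so the progenitors of 1 replicate had the same transposition. Within the SOX2-positive gate, p2 cells were positive for both NKX6-1 and PAX6, whereas p0-1 cells were positive for PAX6 and negative for NKX6-1. Each sample is a bulk of 15000 sorted cells, so fewer cells with an open element and less opening per cell cannot be told apart.

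In the ventral neural tube, Shh from the notochord and floor plate divides progenitors into domains that make different neurons. The p2 domain makes V2 interneurons, and the p0 and p1 domains next to it on the dorsal side make V0 and V1 interneurons. The domains are kept apart by pairs of transcription factors that repress each other, among them NKX6-1 on the ventral side and DBX1 and DBX2 on the dorsal side. Proneural bHLH factors, which bind the short motif known as the E-box, act in progenitors that are leaving the cell cycle to become neurons.

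Elements among those that differed most, and those nearest the 2 loci at which the domains are opposed, are shown here by the 300 bases around their centers. All were read from GRCm38 (mm10) on the + strand, and the capitals mark E-boxes (CATCTG or its reverse complement CAGATG, and the palindrome CAGCTG). The first 2 were among the 3 elements with the largest excess in p2. They lay 77120 bp upstream of the transcription start site (TSS) of Eci2, an enzyme of fatty acid oxidation (chr13:35071114-35071413, intergenic), and in an intron of the noncoding A930011G23Rik (chr5:99723823-99724122). The next 3 had the largest excess in p0-1. They lay upstream of the homeobox gene Dbx1 (chr7:49696465-49696764) and between it and Htatip2 (chr7:49699440-49699739 and chr7:49705055-49705354), all intergenic. The last pair were the called elements nearest the TSS of Nkx6-1 (chr5:101655763-101656062, intergenic) and of Dbx1 (chr7:49635231-49635530, intron).

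Eci2 upstream: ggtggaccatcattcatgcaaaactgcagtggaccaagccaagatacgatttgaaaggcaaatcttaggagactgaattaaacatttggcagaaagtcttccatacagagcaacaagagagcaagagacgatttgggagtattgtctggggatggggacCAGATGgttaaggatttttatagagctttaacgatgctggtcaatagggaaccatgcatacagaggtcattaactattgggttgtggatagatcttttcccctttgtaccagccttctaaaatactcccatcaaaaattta
A930011G23Rik intron: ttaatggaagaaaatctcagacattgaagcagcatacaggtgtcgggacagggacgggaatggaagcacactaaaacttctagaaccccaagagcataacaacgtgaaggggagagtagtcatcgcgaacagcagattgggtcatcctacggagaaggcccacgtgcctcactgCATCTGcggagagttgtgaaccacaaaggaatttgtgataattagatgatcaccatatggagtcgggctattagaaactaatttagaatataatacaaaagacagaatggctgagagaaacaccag
Dbx1 upstream: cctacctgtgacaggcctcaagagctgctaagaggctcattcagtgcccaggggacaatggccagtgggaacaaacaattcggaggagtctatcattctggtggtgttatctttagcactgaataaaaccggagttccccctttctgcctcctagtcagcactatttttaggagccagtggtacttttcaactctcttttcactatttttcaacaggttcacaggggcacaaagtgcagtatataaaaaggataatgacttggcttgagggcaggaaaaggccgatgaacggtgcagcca
Htatip2 upstream, first: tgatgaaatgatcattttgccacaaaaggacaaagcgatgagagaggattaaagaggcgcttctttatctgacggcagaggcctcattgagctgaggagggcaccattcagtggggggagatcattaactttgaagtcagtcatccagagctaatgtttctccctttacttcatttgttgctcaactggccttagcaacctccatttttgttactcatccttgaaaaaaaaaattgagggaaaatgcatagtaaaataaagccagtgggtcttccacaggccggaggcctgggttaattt
Htatip2 upstream, second: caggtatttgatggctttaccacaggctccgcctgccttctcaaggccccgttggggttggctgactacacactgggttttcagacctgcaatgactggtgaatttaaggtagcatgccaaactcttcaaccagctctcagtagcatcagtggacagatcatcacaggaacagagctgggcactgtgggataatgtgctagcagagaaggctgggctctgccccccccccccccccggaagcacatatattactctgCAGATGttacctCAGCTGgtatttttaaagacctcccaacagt
Nkx6-1 downstream: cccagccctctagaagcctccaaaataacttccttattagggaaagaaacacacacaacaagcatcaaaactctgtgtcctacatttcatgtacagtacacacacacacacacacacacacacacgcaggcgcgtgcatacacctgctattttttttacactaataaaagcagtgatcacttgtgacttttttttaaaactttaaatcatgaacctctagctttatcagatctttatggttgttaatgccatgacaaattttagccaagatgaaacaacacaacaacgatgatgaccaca
Dbx1 intron: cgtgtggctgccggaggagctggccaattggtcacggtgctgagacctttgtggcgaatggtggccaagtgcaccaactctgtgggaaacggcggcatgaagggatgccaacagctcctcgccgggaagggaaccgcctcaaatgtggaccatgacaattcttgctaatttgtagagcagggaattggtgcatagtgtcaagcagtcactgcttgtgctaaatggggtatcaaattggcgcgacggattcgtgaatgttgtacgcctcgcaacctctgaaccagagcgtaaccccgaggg

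The elements at Eci2 and A930011G23Rik each held 1 CATCTG or CAGATG. Among the other 5, these letters were found in the second element between Dbx1 and Htatip2, which had 1 CAGATG and 1 CAGCTG. E-boxes with other central bases were not marked.

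Values were the authors' variance-stabilized log2 values, from which normalized counts, that is, reads in an element divided by the size factor of the sample, were recovered. Each sample had from 18945714 to 26532263 reads in elements. The squared correlation between replicates over the elements tested was 0.975 and 0.965 between replicates 1 and 2 of p0-1 and of p2, and from 0.917 to 0.931 for the pairs with replicate 3, which stood apart in both types. Elements annotated as promoter-TSS took 33 to 37% of reads in p0-1 and 32 to 35.2% in p2, the share being lower in p2 in each pair. In all, 32167 elements averaged more than 100 normalized counts over the 6 samples and were tested. Their median log2 ratio of p2 over p0-1 was -0.12, and the ratios given here are to be read against it.

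The labels were first checked at the genes of the sorting markers. The promoter of Sox2, a factor of all NPs, had means of 1893 ± 39.3 (SD, n = 3) normalized counts in p0-1 and 1735 ± 78.5 in p2, a log2 ratio of -0.13 that was 0.026 after correction for GC content and level. The promoter of Pax6 had 4005 ± 360.3 in p0-1 and 3507 ± 189 in p2, a log2 ratio of -0.19. At Nkx6-1, whose protein defined the gates, the promoter element had 1495, 1625 and 1679 normalized counts in replicates 1 to 3 of p0-1 and 2429, 2541 and 2238 in those of p2. Every p2 sample was higher than every p0-1 sample, with a log2 ratio of 0.59 ± 0.15 (SD over 3 pairs), and the promoter was open in both types. Because NKX6-1 was used to sort the cells, its locus checks the labels and is no independent finding on identity. The element nearest the TSS of Olig2, the pMN factor, had 438 ± 54.1 in p0-1 and 734 ± 72 in p2. The log2 ratio was 0.75, below the 2-fold threshold.

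At day 6, 2452 elements differed between p0-1 and p2, which was 7.62% of those tested (limma on the log2 values with the replicate number as a block, two-sided, with a Benjamini-Hochberg adjusted p below 0.01 and more than a 2-fold difference). Of these, 2221 were more accessible in p2 (6.9% of those tested) and 231 were more accessible in p0-1 (0.718%). Every tested element beyond 2-fold also passed the adjusted p (limma), the largest being 0.00202, so the fold threshold alone set the number called. A log2 ratio beyond 2 was found in 379 elements higher in p2 and in 1 element higher in p0-1, which lay upstream of Dbx1. All 2452 lay in the same direction in the 3 pairs, as did 21.3% of all tested elements toward p2 and 55.2% toward p0-1. For 2421 of the 2452 the p0-1 and p2 samples did not overlap, against 33.8% of all elements tested (13.7% higher in p2 and 20.0% higher in p0-1). On adjusted p alone, 4706 elements were higher in p2 (14.6%) and 7650 were higher in p0-1 (23.8%). This split kept its order with samples centered on their medians, with 4853 higher in p2 and 6659 in p0-1. It turned after correction for GC content and level, with 5644 higher in p2 and 3012 in p0-1. The median log2 ratio of all elements was then 0.018. The difference was smallest in replicate 3. Elements called higher in p2 had median log2 ratios of 1.55, 1.72 and 1.22 in pairs 1 to 3, and those called higher in p0-1 had -1.21, -1.36 and -0.89. The number higher in p0-1 depended on the replicates and the model. It was 113 without the replicate block, 120 after correction for GC content and level, 149 without replicate 2 and 418 without replicate 3.

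**Figure D1:**
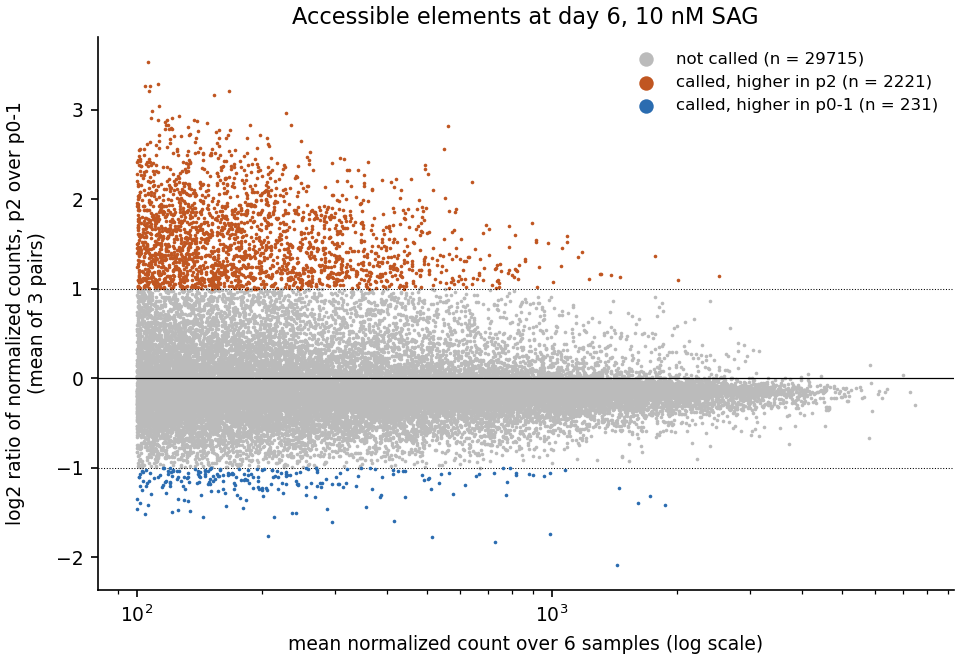
Each point is 1 of the 32167 tested elements, placed by its mean normalized count over the 6 samples (log axis) and by the log2 ratio of p2 over p0-1 averaged over 3 pairs, with dotted lines at the 2-fold threshold. The 2221 elements called higher in p2 reach a log2 ratio of 3.54, and the 231 called higher in p0-1 reach -2.09.

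Among the elements with the largest excess in p2, the one upstream of Eci2 had 23.7, 15.1 and 22.3 normalized counts in replicates 1 to 3 of p0-1 and 227, 187 and 199 in those of p2. The groups were far apart, and the log2 ratio was 3.28 ± 0.23 (SD over 3 pairs, adjusted p = 1.39e-07, limma with Benjamini-Hochberg adjustment), a 9.74-fold excess in p2. The intron of A930011G23Rik had 17.7, 16.3 and 23.2 in p0-1 and 201, 205 and 166 in p2, a log2 ratio of 3.26 ± 0.42. In both elements the highest p0-1 sample was well below the lowest p2 sample. A further 8 of the 12 elements with the largest excess had log2 ratios from 3.26 to 2.91 and p0-1 means from 19.6 to 32 normalized counts. They were assigned to Agps, an enzyme of ether lipid synthesis, 4930404A05Rik, Pdzrn4, the receptor phosphatase gene Ptprk, the signaling adaptor gene Tab2, Crbn, a substrate receptor of a ubiquitin ligase, Mir3970 and Klhl29. The assignment is the authors' annotation of each element to the nearest TSS, which does not show which gene an element acts on. With so few counts in p0-1, these elements passed the filter on the mean normalized count only through their p2 counts. Any tested element at such a p0-1 level had to be several-fold higher in p2, so the filter fixed part of the size of these ratios. The same holds for other tested elements with few counts in either type.

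The largest excess in p0-1 was at the element 59780 bp upstream of Dbx1 (chr7:49696204-49697027), a homeobox gene of the progenitors that make V0 interneurons. It had 2117, 2458 and 2373 normalized counts in p0-1 and 419, 527 and 723 in p2. The groups did not overlap, and the log2 ratio was -2.09 ± 0.33 (adjusted p = 1.24e-07, limma), a 4.25-fold excess in p0-1. Next in size were 3 elements annotated to Htatip2, a gene that lies beside Dbx1. The first had 1036, 1152 and 1228 in p0-1 and 279.6, 298 and 389 in p2 (log2 ratio -1.83 ± 0.16). The second had 792, 829 and 772 in p0-1 and 237, 214 and 247 in p2 (-1.77 ± 0.16). The third, 19355 bp upstream of the Htatip2 TSS, had 343, 361 and 258 in p0-1 and 113, 84.9 and 82.7 in p2 (-1.77 ± 0.27). In none of the 3 did the groups overlap. The remaining 8 of the 12 elements with the largest excess in p0-1 had log2 ratios from -1.75 to -1.51. They were assigned to Mir8117, Dbx1 again, Timd4, the noncoding Gm2716, the axon guidance ligand gene Slit2, the glial glutamate transporter gene Slc1a3, Rack1, a protein of the ribosome, and the sulfotransferase gene Chst9. Those at Mir8117, Slit2 and Slc1a3 did not pass the test without the replicate block.

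Of 13 tested elements within 200 kb of the Dbx1 TSS, 7 were called higher in p0-1, against 0.718% of all elements tested, and the median log2 ratio was -1.32. The element over the first kilobases of the gene, centered 1454 bp downstream of the TSS (chr7:49633350-49637413), had 2519, 2741 and 2139.7 normalized counts in p0-1 and 959, 957 and 1031 in p2. The p0-1 samples were all above the p2 samples (log2 ratio -1.32 ± 0.24, adjusted p = 1.82e-07, limma). The element 3270 bp upstream of the TSS had 447 ± 121 in p0-1 and 143 ± 18.3 in p2 (-1.61 ± 0.37). The seventh lay in an intron of Prmt3 (chr7:49809243-49810129), with a log2 ratio of -1.38. Of the same 13 elements, 1 was called higher in p2. It was at chr7:49709443-49710216, 72994 bp upstream of Dbx1, with means of 215.6 in p0-1 and 612 in p2 and a log2 ratio of 1.52.

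Around Nkx6-1, which is expressed in p2, pMN and p3, 14 elements were tested within 200 kb of the TSS. Of these, 6 were called higher in p2, against 6.9% of all elements tested, 0 were called higher in p0-1, and the median log2 ratio was 0.88. The 6 lay downstream of the gene, from 8798 to 167285 bp from the TSS. The farthest (chr5:101496791-101498062) had 49, 48.9 and 67.8 normalized counts in p0-1 and 360.3, 398 and 314 in p2. The p2 samples were all above the p0-1 samples, with a log2 ratio of 2.68 ± 0.43 (adjusted p = 2.3e-07, limma). The nearest (chr5:101655125-101656702), 8798 bp from the TSS, had means of 226.7 and 755 and a log2 ratio of 1.77. A strongly open element 144351 bp downstream had 1709 in p0-1 and 3093 in p2 and was not called (log2 ratio 0.87). Over all 17 tested elements that the annotation gives to Nkx6-1, at any distance, 10 were called higher in p2, which was the highest number for any gene.

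**Figure D2:**
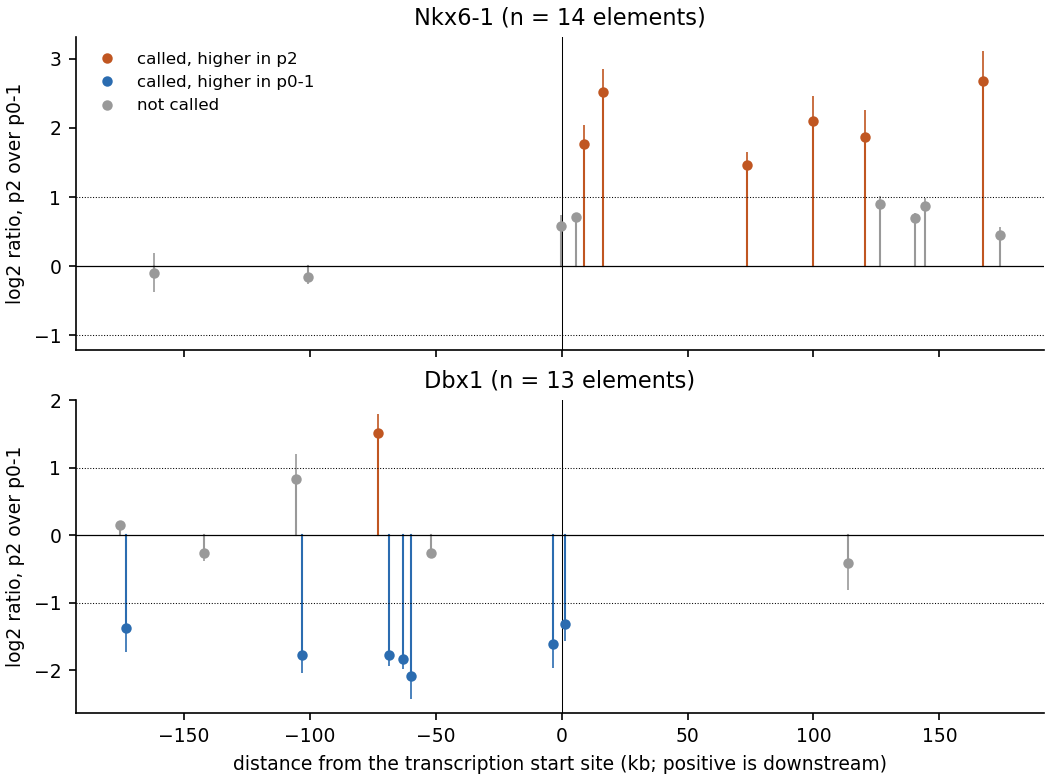
The log2 ratio of p2 over p0-1 (mean of 3 pairs, bars show the SD) is plotted for each tested element against its distance in kb from the TSS of Nkx6-1 (14 elements) and Dbx1 (13 elements), positive distances being downstream. The 6 called elements at Nkx6-1 lie above the upper threshold, and at Dbx1 7 lie below the lower threshold and 1 above the upper.

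Of the other genes of the p2 domain and its V2 neurons, Foxn4, a forkhead gene of p2 progenitors, had 2 elements higher in p2. The element in its intron at chr5:114270025-114270653 had 34.7, 25.6 and 42.6 normalized counts in p0-1 and 188, 146 and 211 in p2. The groups did not overlap, and the log2 ratio was 2.39 ± 0.09. A second intronic element, 9631 bp downstream of the TSS, had 211 ± 33.5 in p0-1 and 784 ± 28.5 in p2 (1.90 ± 0.28), whereas the promoter of Foxn4 had 251 ± 14.3 and 307 ± 14.7 (0.29). Lhx3, a LIM homeobox gene of V2a and motor neurons, had 2 elements higher in p2. The stronger, 25456 bp downstream, had 66.8, 47.8 and 48.4 in p0-1 and 212, 162 and 192 in p2, with no overlap (1.78 ± 0.16). No element of Gata2, a gene of V2b neurons, was called, and the element nearest its TSS had 600.3 ± 83.8 in p0-1 and 617 ± 121 in p2. Over the list of 12 genes of p2 and the V2 lineage, 15 of 56 tested elements were called higher in p2 (26.8%, against 6.9% of all elements tested) and 0 higher in p0-1. Of the 15, 10 were those of Nkx6-1, the gene of the sorting marker. The median log2 ratio of the list was 0.51, against -0.12 for all elements.

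Among the genes of the p0 and p1 domains, the excess in p0-1 above 2-fold was at Dbx1. The promoter region of Dbx2, the related gene expressed in both p0 and p1, had 469.9 ± 70 in p0-1 and 266 ± 58.7 in p2, a log2 ratio of -0.83 ± 0.10 that did not reach the threshold. The element 1382 bp upstream of Prdm12, a gene of p1 progenitors, had 2895, 2595 and 3269 in p0-1 and 1546, 1466 and 1669 in p2. The groups did not overlap, with a log2 ratio of -0.90 ± 0.07, short of 2-fold. The V1 gene En1 and the V0 gene Evx1 had nearest tested elements with log2 ratios of -0.16 and 0.02. Of the 52 tested elements of this list of 12 genes, 3 were called higher in p0-1 (5.77%, against 0.718% of all elements), all 3 at Dbx1. The 4 called higher in p2, at Lhx5 and Sp8, were 7.69%, near the 6.9% of all elements. The list's median log2 ratio was -0.18. Outside the list, an element 2778 bp upstream of Prdm13, which encodes a factor of dorsal interneuron specification, had 2332 ± 210 in p0-1 and 887 ± 56 in p2 (-1.39 ± 0.11). It was picked after its values were seen.

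**Figure D3:**
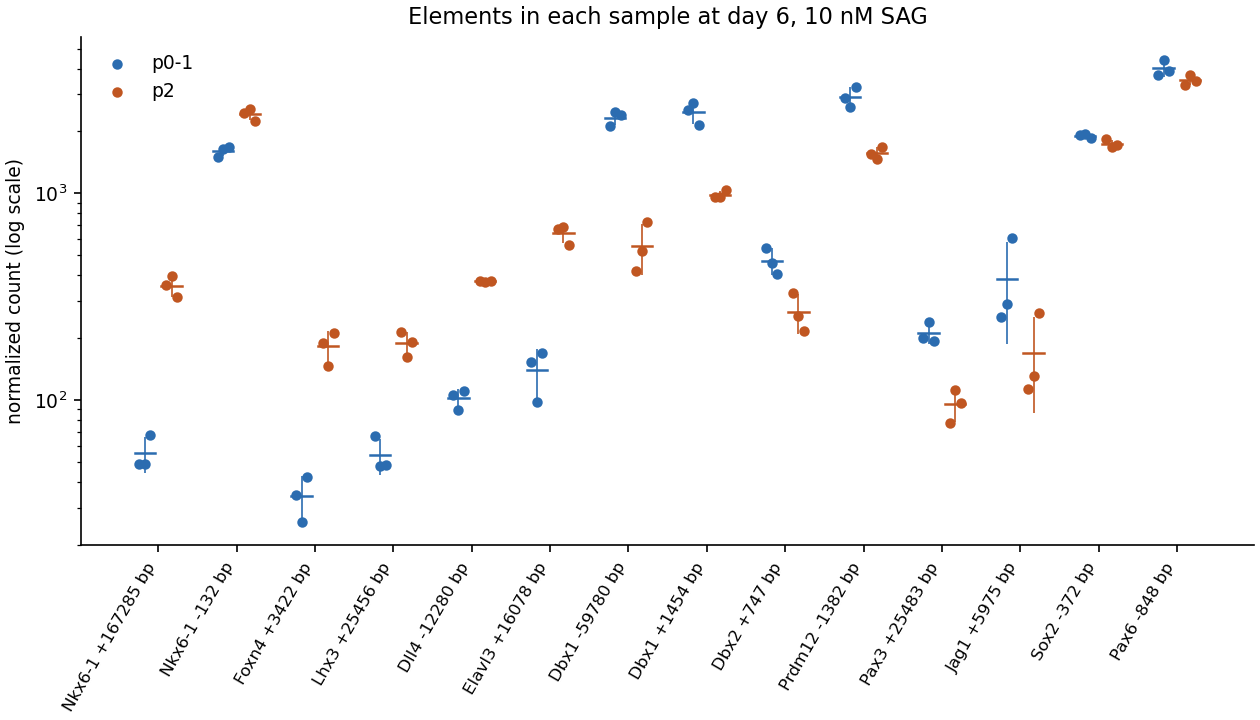
Normalized counts (log axis) of 14 elements in each of the 3 p0-1 and 3 p2 samples are shown as points, with the mean as a line and the SD as a bar, and each element is named by its gene and its distance from the TSS in bp. Elements at Nkx6-1, Foxn4, Lhx3, Dll4 and Elavl3 are higher in p2 in every sample, those at Dbx1, Dbx2, Prdm12 and Pax3 are higher in p0-1 in every sample, and at the Jag1 element the groups overlap. Counts are from 1668 to 1929 over all samples at Sox2 and from 3329 to 4406 at Pax6.

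In the Pax and dorsal list 3% of the tested elements were called higher in p2 and 1% higher in p0-1, and in the Iroquois list 2.7% and 0%, against 6.9% and 0.718% of all elements tested. Pax3 and Pax7, paired box genes of dorsal progenitors, had promoter elements with log2 ratios of -0.65 and -0.70. An element 25483 bp downstream of the Pax3 TSS had 200.3, 239 and 194 in p0-1 and 77.4, 112 and 96.3 in p2. These groups did not overlap (-1.15 ± 0.19), and this was the 1 called element higher in p0-1 among 100 tested of the Pax and dorsal list, against 3 higher in p2. The 3 were at Msx1, Olig3 and Lbx1, and that of Msx1, 27016 bp upstream, had 63.3 ± 32.2 in p0-1 and 353 ± 37.8 in p2 (2.59 ± 0.64). The Iroquois genes Irx3 and Irx5, expressed in both domains, had elements nearest their TSSs with log2 ratios of -0.29 and -0.26. An element 65597 bp upstream of Irx3 was higher in p2 (335 ± 6.22 against 701 ± 119), at a log2 ratio of 1.05 that lay below 1 without replicate 1 or without replicate 2.

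Genes of the Shh pathway had 2 of 49 tested elements called higher in p2 (4.08%) and 1 called higher in p0-1 (2.04%), against 6.9% and 0.718% of all elements tested, in cells given the same SAG concentration. The element at the TSS of Gli1, a direct target of the pathway, had 2774 ± 371 in p0-1 and 2483 ± 182 in p2 (log2 ratio -0.15), and that nearest the TSS of Ptch1, the receptor and target of the pathway, had 741 ± 18.4 and 798 ± 25.4 (0.11). The 3 called elements were 119079 bp upstream of Hhip, an inhibitor that binds the ligand (1.27 ± 0.07), 72500 bp upstream of Cdon, a co-receptor (1.48 ± 0.26), and 355573 bp upstream of Gli3, the repressor of the pathway (1010.0 ± 91.6 in p0-1 against 517 ± 159.5 in p2), whose ratio stood at the threshold.

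Ventral genes outside the p2 domain also had elements more open in p2. Of 57 tested elements of genes of pMN, p3, floor plate and motor neurons, 8 were called higher in p2 (14%) and 0 higher in p0-1, against 6.9% and 0.718% of all elements tested, at a median log2 ratio of 0.07. They were assigned to Isl1 (4), Lhx4 (2), Olig1 (1) and Sim1 (1). The element with the largest ratio, 558315 bp from Isl1, a LIM homeobox gene of motor neurons, had 62.5, 53.6 and 49.4 in p0-1 and 379.9, 342 and 282 in p2, with no overlap (2.57 ± 0.08).

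Of the proneural and Notch genes, 10 of 89 tested elements were called higher in p2 (11.2%) and 1 was called higher in p0-1 (1.12%), against 6.9% and 0.718% of all elements tested, and the median log2 ratio was 0.04. They included elements at Neurod4 (3), Dll4 (2), Hey1 (2) and Heyl (1). At Dll4, which encodes a Notch ligand, the element 12280 bp upstream had 106, 89.7 and 110.4 in p0-1 and 377, 372 and 378 in p2. The groups were apart (1.88 ± 0.15), and the element 167 bp from the Dll4 TSS had a log2 ratio of 1.00 ± 0.07, just below the threshold. Dll1, another Notch ligand, had a promoter element with 1831 ± 38.6 in p0-1 and 2451 ± 81.4 in p2 (0.42 ± 0.02). The elements nearest the TSS of Neurog1 and Neurog2, bHLH factors that start neuronal differentiation, had log2 ratios of 0.30 and -0.09. The element called higher in p0-1 lay 5975 bp downstream of the TSS of Jag1, a Notch ligand of p1 progenitors. It had 252, 290.1 and 609.9 in p0-1 and 113, 130.2 and 263 in p2, so the groups overlapped and each pair lay the same way (-1.17 ± 0.04). Without the block its adjusted p was 0.097 (limma).

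Genes of postmitotic neurons had 8 of 42 tested elements called higher in p2 (19%) and 1 higher in p0-1 (2.38%), against 6.9% and 0.718% of all elements tested. The list's median log2 ratio was 0.07. The 8 were at Ina, Map2, Elavl3, Elavl4, Dcx and Nefl. No element of Snap25 or Syt1, which act in transmitter release, or of Gap43, a growth cone gene, was called, and the median log2 ratios of their tested elements were -0.29, -0.23 and -0.24. The element with the largest ratio, 16078 bp downstream of the TSS of Elavl3, an RNA-binding protein of neurons, had 152, 97.9 and 168 in p0-1 and 668, 685 and 564 in p2, with no overlap (2.22 ± 0.53). The TSS element of the neuronal tubulin gene Tubb3 had 1501, 1337 and 1081 in p0-1 and 2580.2, 2866 and 1695 in p2. These did not overlap (0.84 ± 0.23), and the ratio did not reach the threshold. Summed over all 131 elements of the 13 neuronal genes, normalized counts were 18667 to 19789 in p0-1 and 21562 to 23297 in p2, a ratio of 1.17 with no overlap, and 0 of the 131 were at 0 in all samples. Such sums did not overlap in 12 of the 17 lists. That of the pan-neural progenitor list, for example, was 66242 to 69745 in p0-1 and 55721 to 59623 in p2, a ratio of 0.843. The part of these sums in the differences was not tested. Sums over NMP and mesoderm genes, 7053 to 7711 in p0-1 and 6684 to 7415 in p2, overlapped, as did those over neural crest genes. None of the 21 and 19 tested elements of these lists was called, against 7.62% of all elements tested.

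Among genes of later neuronal function and wiring, both directions were found. Of 272 tested elements of axon guidance and adhesion genes, 30 were called higher in p2 (11%), 5 of them at Efna5 and 4 at Robo1, and 7 were called higher in p0-1 (2.57%), against 6.9% and 0.718% of all elements tested. The list's median log2 ratio was -0.17. The element 765663 bp upstream of Epha5, an ephrin receptor gene, had 93 ± 7.28 in p0-1 and 498 ± 51.4 in p2 (2.41 ± 0.22), whereas that upstream of Slit2 had 317 ± 84 and 112 ± 50.9 (-1.55 ± 0.24). Of 77 tested elements of glutamate and GABA receptor genes, 6 were called higher in p2 (7.79%, near the 6.9% of all elements) and 3 higher in p0-1 (3.9%, against 0.718%). The element 39722 bp upstream of Grik3, a kainate receptor subunit gene, had 147, 139.8 and 191 in p0-1 and 929, 899.8 and 986 in p2. The p2 samples were all above the p0-1 samples, at a log2 ratio of 2.56 ± 0.17 (adjusted p = 4.91e-08, limma). Of 45 tested elements of the RA pathway, 3 were called higher in p2 (6.67%, near the 6.9% of all elements) and 0 higher in p0-1. The largest was 58523 bp downstream of Cyp26b1, the RA-degrading enzyme (42.3 ± 14.4 against 225 ± 31.1, log2 ratio 2.44). For BMP, Id and Wnt genes, 4 of 100 were called higher in p2 (4%) and 1 higher in p0-1 (1%). The counts were 1 and 2 of 74 for pan-neural genes (1.35% and 2.7%) and 2 and 1 of 56 for NFI and temporal genes (3.57% and 1.79%). Over all elements tested the shares were 6.9% and 0.718%. None of 57 tested elements of the Hox genes, whose combinations set position along the body axis, was called, against 7.62% of all elements tested.

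Some genes held elements of both kinds. The 32167 tested elements were annotated to 15971 genes, of which 1753 had an element called higher in p2, 215 had one called higher in p0-1 and 51 had both. In Sox6, the SoxD factor gene, an element 325572 bp downstream of the TSS was higher in p2 (109 ± 23.6 against 239 ± 28.3, log2 ratio 1.14), and one at 321985 bp was higher in p0-1 (182 ± 45.4 against 69.4 ± 2.7, log2 ratio -1.35). In Zfhx3, a homeobox gene of later-born neurons, an element at 76131 bp was higher in p2 (1.65 ± 0.49) and one at 74324 bp was higher in p0-1 (-1.02 ± 0.23).

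Called elements lay away from promoters. Of all tested elements 21.3% were annotated as promoter-TSS, whereas 1.44% of the elements higher in p2 (32) and 0.433% of those higher in p0-1 (1) were. Elements higher in p2 were intergenic in 47.1% and intronic in 47.7% of cases, and those higher in p0-1 in 58% and 40.7%, against 30.9% and 35% of all tested elements. The median distance to the nearest TSS was 44220 bp for elements higher in p2, 77473 bp for those higher in p0-1 and 10348 bp for all tested. The called elements also had lower levels, with medians of 167 and 187 normalized counts against 340.1, and a lower GC content of the central 300 bases, 48% and 44.3% against 53%. Tested elements outside promoters were intergenic in 39.2% and intronic in 44.5% of cases. Their medians were 22600 bp to the nearest TSS, 263 normalized counts and 50.3% GC. The 1 promoter higher in p0-1 was annotated to Mtm1, a lipid phosphatase (145.6 ± 14.5 against 69.5 ± 4.42, log2 ratio -1.05). The 32 higher in p2 included those of Nhlh1, a bHLH gene of newborn neurons (247 ± 50.1 against 755 ± 9.41, log2 ratio 1.63), and of St18, a zinc finger gene of differentiating neurons (185 ± 23.8 against 498 ± 86.1, log2 ratio 1.42). Both were picked after their values were seen. The 2 exonic elements higher in p0-1 were annotated to Gm36633 and Armh4.

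The letters of short motifs were counted on both strands in the central 300 bases of each element. CATCTG, the E-box bound by OLIG and NEUROG factors, was present in 53% of the elements higher in p2 (1178 elements), in 15.6% of those higher in p0-1 (36 elements) and in 20.1% of all elements tested, or 23% of those outside promoters. The palindrome CAGCTG, another E-box of proneural factors, was in 33.5%, 13.9% and 19.7%, or 21.1% of those outside promoters. ACAAAG, the core of SOX motifs, was in 32.9% of the elements higher in p2 and in 45.5% of those higher in p0-1, against 25.3% of all tested and 29% of those outside promoters. TAATGA, an NKX6-type homeodomain motif, was in 20.7% and 19.9%, against 11.6% of all tested and 13.7% of those outside promoters. ACATTCC, the TEAD motif, was in 3.69% and 8.66%, against 4.13% of all tested and 4.71% of those outside promoters. The share with CATCTG was 16% among elements outside promoters with log2 ratios from -0.5 to 0, was 49.5% between 1 and 1.5, and was 68.3% among the 82 elements above 2.5. These shares describe letters and do not show that a factor was bound. GC content and level, which also differed, were not matched. No test was made because the elements were chosen from the same values.

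**Figure D4:**
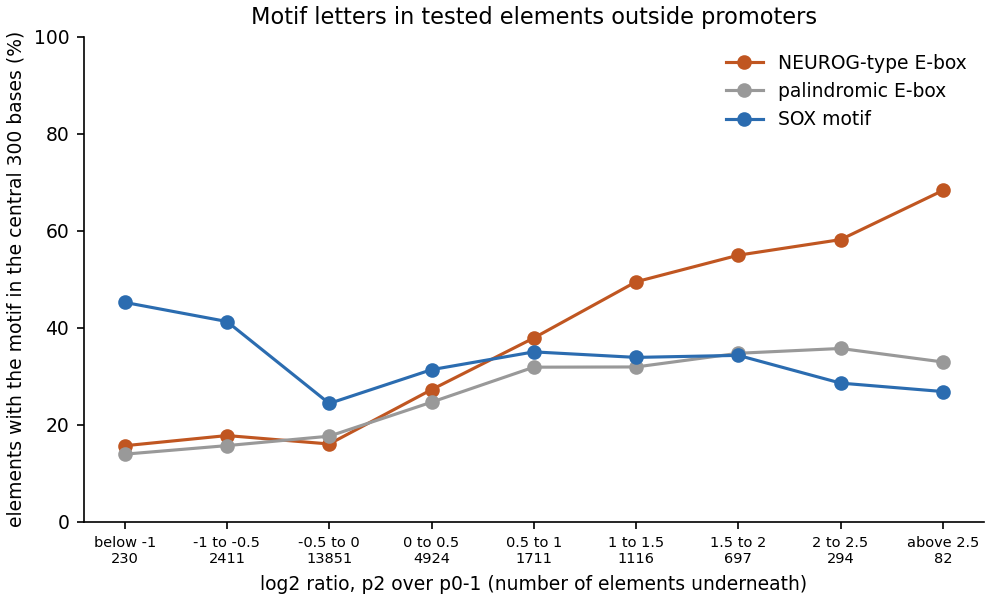
The percentage of tested elements outside promoters that hold the letters of the NEUROG-type E-box (CATCTG), the palindromic E-box (CAGCTG) and the SOX motif (ACAAAG) in their central 300 bases is plotted for bins of the log2 ratio of p2 over p0-1, with the number of elements in each bin underneath. The NEUROG-type E-box goes from 15.7% in the lowest bin to 68.3% in the highest, and the SOX motif is at 45.2% in the lowest bin and 26.8% in the highest.

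The same contrast was measured at days 5 and 4 in other samples. At day 5, 1471 elements were called (4.57% of 32213 tested), 1393 of them higher in p2 (4.32%) and 78 higher in p0-1 (0.242%). At day 4, 893 were called (3.03% of 29490), 886 higher in p2 (3.0%) and 7 higher in p0-1 (0.0237%). Without the replicate block 4 elements were called at day 5 and 0 at day 4, where 2295 had an unadjusted p under 0.05 (limma). Day 5 had 4 calls without replicate 1, 603 without replicate 2 and 2376 without replicate 3, and day 4 had 577 without replicate 3. Of the elements called higher in p2 at day 6, 2220 of 2221 were also higher in p2 at day 5, with a median log2 ratio of 1.68, and 1983 at day 4, with a median of 0.74. Among all elements tested at day 6, 41.8% and 43.6% were higher in p2 on those days. The elements called higher in p2 on both day 6 and day 5 numbered 1130, which is 50.9% of the day 6 calls and 81.1% of the day 5 calls. Each day had its own filter on the mean, so day 6 calls below the filter at day 5 could not be shared. At day 5, 1918 of the 2221 (86.4%) were beyond 2-fold toward p2, against 7.09% of all elements tested at day 6.

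Of the elements called higher in p0-1 at day 6, most were not higher in p0-1 than in p2 in the 10 nM samples of day 4. At day 5, 230 of the 231 were higher in p0-1, at a median log2 ratio of -0.74, and 32 were beyond 2-fold. At day 4, 46 of the 231 were higher in p0-1, and the median log2 ratio was 0.45, toward p2. Replicate 3 of p0-1 at day 4 stood apart, with 3263 of all elements at 0 against 524 and 824 in replicates 1 and 2. In pairs 1 to 3 of day 4, 105, 58 and 38 of the 231 were higher in p0-1, and 74 were without replicate 3, at a median log2 ratio of 0.24. Those called on both day 6 and day 5 numbered 26, or 11.3% of the day 6 calls and 33.3% of the day 5 calls. The Dbx1 element at -59780 bp had log2 ratios of -0.11 at day 4, -1.26 at day 5 and -2.09 at day 6. The Nkx6-1 element at 167285 bp had 0.08, 1.85 and 2.68. For both genes the largest ratio of the 3 days was at day 6, and their differences between day 6 and day 5 did not pass the test.

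The difference between days was tested as an interaction of cell type and day. Between day 6 and day 5, 0 of 32211 elements passed (limma), although 6069 had an unadjusted p under 0.05, and 190 passed without replicate 3. Between day 6 and day 4, 1556 of 31242 passed (4.98%), 379 with a ratio further toward p2 at day 6 (1.21%) and 1177 with a ratio further toward p0-1 (3.77%). Of the elements called higher in p0-1 at day 6, 153 could be tested and 107 had a ratio further toward p0-1 at day 6 than at day 4, the Dbx1 element at -59780 bp being 1 of them. Of those called higher in p2, 1305 could be tested and 296 had a ratio further toward p2 at day 6. The members were chosen by their day 6 values, so the direction of these 2 counts was partly fixed by the choice. No element passed the day 4 interaction without the replicate block or without replicate 2. The counts were 3460 without replicate 1 and 2394 without replicate 3.

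The same types were also sorted at day 6 from other SAG concentrations, p0-1 from 0 nM (2 samples) and p2 from 100 nM (3 samples). Here the SAG concentration differed with the type, so the effects of dose and type cannot be told apart. No element passed the test in the 31783 tested (limma), and 9648 had an unadjusted p under 0.05. Leaving out replicate 2 or 3 left 1 p0-1 sample, so no conclusion is drawn from those fits. With pairs taken from the numbers in the sample descriptions, 4394 were called. The ratios, here of group means and not of pairs, lay mostly in the same direction. Of the elements called higher in p2 at 10 nM, 2205 of 2221 were higher in p2, at a median log2 ratio of 1.54, and of those called higher in p0-1, 207 of 231 were higher in p0-1, at a median of -0.91. Of all elements, 45.5% were higher in p2. The Dbx1 element at -59780 bp had 1905 ± 172 normalized counts in p0-1 at 0 nM (SD, n = 2) and 564 ± 127 in p2 at 100 nM (n = 3). The Nkx6-1 element at 167285 bp had 29.1 ± 0.483 and 218 ± 48.5. At Eci2 the values were 39.4 ± 15.8 and 109.8 ± 39.2, the p2 mean thus being lower at 100 nM than at 10 nM.

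Over the whole series the 2 sets of elements had different histories. In NMPs at day 3 both were low. The median log2(normalized count + 1) over the elements, averaged over the 3 NMP samples, was 4.11 ± 0.11 for those higher in p2 and 2.94 ± 0.23 for those higher in p0-1. At day 6 the set higher in p2 stood at 6.42 ± 0.27 in p0-1 and 7.98 ± 0.13 in p2 of 10 nM. It was at 7.60 and 7.69 in pMN of 100 and 500 nM and at 6.46 and 6.59 in p3. For the set higher in p0-1, the values at day 6 were 8.02 ± 0.08 in p0-1 and 6.88 ± 0.21 in p2 of 10 nM, 6.75 and 6.55 in pMN, and 5.48 and 5.18 in p3. The order from high to low was thus p0-1, p2, pMN and p3 for the set higher in p0-1, with p2 of 10 nM and pMN of 100 nM lying within 1 SD of each other. For the set higher in p2, p2 of 10 nM and pMN were high and p3 was close to p0-1 of 10 nM. In that set at day 6, p2 of 100 nM stood at 7.38 ± 0.52, below both pMN means, and p0-1 of 0 nM at 5.91 ± 0.17. At day 4 the set higher in p0-1 stood at 5.41 ± 0.62 in p0-1 and 5.93 ± 0.43 in p2 of 10 nM, which overlapped within their SDs. It stood at 6.23 ± 0.50 in p0-1 of 0 nM and 5.55 ± 0.07 in p2 of 100 nM on that day, so the order was the other way at those concentrations. These levels describe sets chosen by the day 6 values and were not tested.

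**Figure D5:**
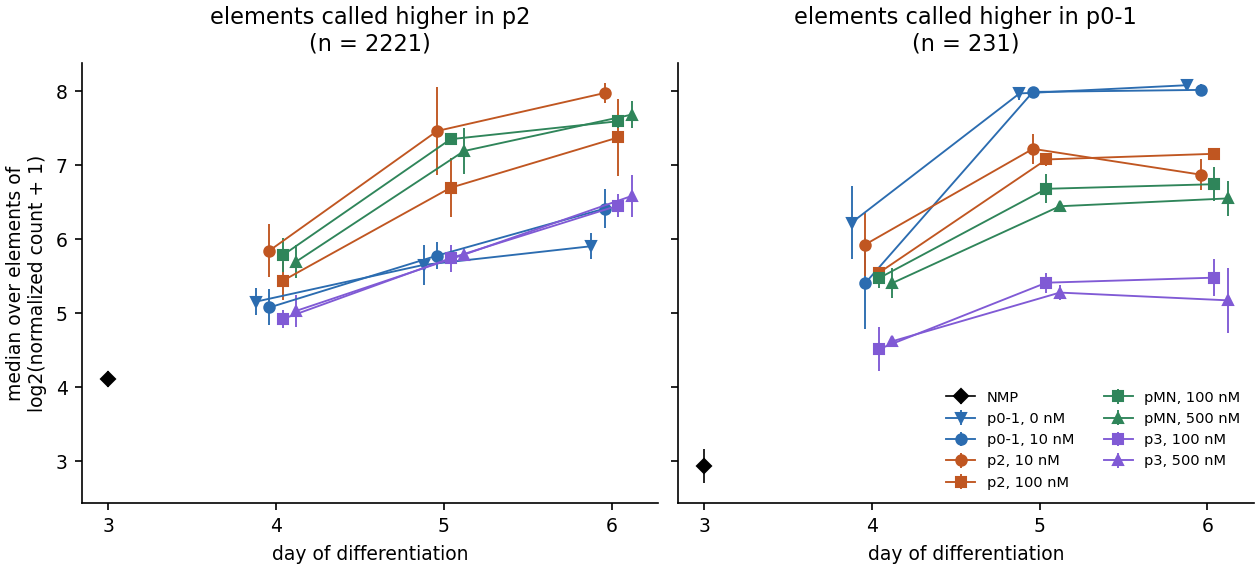
The median over elements of log2(normalized count + 1) is plotted by day for each cell type (color) and SAG concentration (marker shape), for the 2221 elements called higher in p2 and the 231 called higher in p0-1, with points at the mean over samples and bars for the SD. NMPs at day 3 are lowest in both panels, at 4.11 and 2.94, and at day 6 p2 of 10 nM is highest in the first panel, at 7.98, and p0-1 in the second, at 8.02 and 8.08.

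Single loci differed in which other types were open. The Dbx1 element at -59780 bp had 10.3 ± 3.97 normalized counts in NMPs, 235 ± 121 and 153 ± 102 in pMN of 100 and 500 nM and 16.8 ± 6.53 and 4.74 ± 0.166 in p3 at day 6. Its mean was therefore lower in pMN than in p2 of 10 nM, and lowest in p3 and NMPs. The Nkx6-1 element at 167285 bp had 41.6 ± 13.9 in NMPs, 389 ± 64 and 454 ± 154 in pMN and 714 ± 42.5 and 800.2 ± 42.7 in p3, and was thus highest in p3. The element upstream of Eci2 had 25.3 ± 5.37 and 31.8 ± 19.4 in pMN, near the 20.4 ± 4.57 of p0-1 and below the 204 ± 20.9 of p2 at 10 nM. In p3 of 100 and 500 nM it had 75.7 ± 13.8 and 84.5 ± 9.59, between the p0-1 and p2 means. The Grik3 element had 1004.6 ± 213 and 1035 ± 305 in pMN and 707 ± 96.9 and 639.7 ± 3.06 in p3, all above the 159 ± 27.6 of p0-1.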

How the data were processed

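Chromatin accessibility was measured by CaTS-ATAC. The authors processed reads with nf-core/atacseq on mm10, called peaks with MACS at an FDR of 1e-05, kept consensus peaks found in at least 2 replicates, counted reads in them and deposited log2 values of 111638 elements after DESeq2 size-factor normalization and variance stabilization. Inverting that function gave whole reads for every recovered value under 1000 reads (tolerance 0.001). Reads of PCR-amplified fragments are not independent molecules. Coordinates matched GRCm38, in which 90.2% of 8271 promoter-TSS elements lay within 5000 bp of an end of their gene.

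Replicates are separate differentiations. Elements with a mean above 100 normalized counts were tested with limma 3.58.1 (R 4.3.3, variance trend, replicate block) on the log2 values, with Benjamini-Hochberg adjustment. Folds are means of paired ratios of counts plus a pseudocount of 1. For p0-1 of 0 nM against p2 of 100 nM they are ratios of group means. Deviations from group means correlated between same-numbered p0-1 and p2 samples at 0.795, 0.689 and 0.794, and the types of a replicate came from the same dishes, so the numbers were taken to pair them. In simulated data of the day 6 comparison, 199 of 200 elements changed 2.5-fold among 32167 were recovered with 0 false calls. The simulation had a fixed dispersion for all elements, the same effect in every pair and no shift with GC content or level. It therefore checks the code and does not give the rate of false calls in these data. Whole-read tests used limma's voom.

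The named elements were the 12 largest in each direction, the nearest and the largest of 30 chosen genes, and the largest of each list. Other elements within 200 kb of marker genes and called promoters were added after their values were seen. The groups, lists and rules were chosen with earlier results of these data known. Some of the listed genes and named elements are not reported here. The deposited annotation lists 133549 elements, and 21911 without values were not used.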

Additional observations from a re-analysis of the deposited data

Results flagged for a closer look

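The ratio of p2 over p0-1 at 10 nM differed between day 6 and day 4 in 1556 of 31242 elements (4.98%) by the interaction test (limma), 3.77% of those tested lying further toward p0-1 at day 6 and 1.21% further toward p2. Among these were 107 of the 153 testable elements called higher in p0-1 at day 6, whose ratio lay further toward p0-1 at day 6, and 296 of the 1305 testable elements called higher in p2 at day 6, whose ratio lay further toward p2. These subsets were chosen by their day 6 values, so their direction was largely fixed by the choice. All 3 counts were 0 without the replicate block and without replicate 2 of both days.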

How the results depend on the processing

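The 2452 calls of day 6 were 11359 with no filter on the mean (10326 higher in p2 and 1033 higher in p0-1), 4987 with a mean above 50 (4556 and 431), 380 with an absolute log2 ratio above 2 (379 and 1) and 12356 with no fold threshold (4706 and 7650). Leaving out a replicate gave 2228 to 2885 in all, 2022 to 2467 higher in p2 and 149 (without replicate 2) to 418 (without replicate 3) higher in p0-1. The last count was 113 without the replicate block and 120 with the GC and level correction. The total was 1943 without the block, 2452 by voom, 2477 with samples centered on their medians and 2386 with all day 6 samples in the fit. The fits without the block, by voom and with all day 6 samples used the folds of the main fit. Their counts could therefore differ from 2452 only through the adjusted p, and the equal count by voom is no independent check of the folds. At day 5 the block's removal left 4 calls, and leaving out a replicate gave 4 to 2376. At day 4 these were 0 and 577 to 1232. The difference between day 6 and day 5 had 0 to 190 calls without a replicate and 1556 with day 4 in place of day 5. The latter became 0 without the block, where 4247 had an unadjusted p under 0.05, and 0 to 3460 without a replicate. For p0-1 of 0 nM against p2 of 100 nM, leaving out a replicate gave 0 to 5613, and pairing by the numbers of the sample descriptions, tried after the data were seen, gave 4394. These last fits had 1 residual degree of freedom. Those without replicate 2 or 3 held 1 p0-1 sample, and the fit without replicate 3 gave the upper end of the range. No conclusion is drawn from these fits with 1 p0-1 sample. The cause of these changes was not tested. Over whole elements, the NEUROG-type E-box was in 90.7% of elements higher in p2 and 51.9% of those higher in p0-1, against 63.7% of all tested, and the SOX motif in 73.9% and 76.2%, against 68.7%. Among tested elements outside promoters these shares were 67% for the E-box and 72.4% for the SOX motif.

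Of 645 values of 93 named elements under 7 settings, 611 kept their direction and side of the threshold. Without the block 9 calls were lost, all at an unchanged log2 ratio (among them Mir8117, Slit2, Slc1a3, Jag1, Gli3, Ina, Axin2 and Grin2a). Those at Irx3, Gli3, Zfhx3 and Axin2 fell below 2-fold without 1 replicate, and those at Pax3, Gli3 and Zfhx3 with the GC and level correction. The sign turned without replicate 2 for Gata2 at -444 bp and Evx1 at -7373 bp, whose ratios without 1 replicate lay between -0.043 and 0.096 and between -0.083 and 0.12, and, with the GC and level correction, for Gata2 at -4622 bp (0.098), Sox2 at -372 bp (0.026), Foxa2 at 1458 bp (0.060) and Neurog2 at 486 bp (0.058), none of which was called. Reads in elements ranged from 18945714 to 26532263 over the 6 samples. The day 4 values by pair were added after the data were seen. So was the split by direction with samples centered on their medians and after correction for GC content and level.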
